A study of Mus musculus with 4 samples.

Results

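The nuclear genome encodes most subunits of the mitochondrial respiratory chain, and these genes were followed in cultured mouse aortic endothelial cells. Members were the rows of the deposited gene count table whose mouse symbol begins as those of the subunits of complexes I to V do (Nduf followed by a, b, c, s or v and a digit, the Sdh genes, Uqcr, Cyc1, Cycs, Cox4 to Cox8 and Atp5). Of 27179 rows, 93 met this rule: 42 in complex I, 4 in complex II, 10 in complex III, cytochrome c (Cycs), 18 in complex IV and 18 in complex V, 88 of them protein-coding and 5 pseudogenes. Complexes were assigned from the symbol, so Ndufa4, which is now regarded as a subunit of complex IV, stands under complex I. Ndufab1, the assembly factors and the ATP synthase inhibitor gene Atpif1 lie outside the rule.

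Complexes I and II take electrons from NADH and succinate and pass them through ubiquinone to complex III, cytochrome c and complex IV, where oxygen is reduced. Complexes I, III and IV pump protons, and complex V, the ATP synthase, uses the gradient to make ATP. Each complex but complex II also holds subunits encoded by mitochondrial DNA, so that both genomes must supply it. Endothelial cells are known to draw much of their ATP from glycolysis and to use their mitochondria largely for signalling and biosynthesis.

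The cells were of the mAEC line, murine aortic endothelial cells with no genetic change named in the labels. The control group was grown in ordinary medium, and the conditioned medium group received the supernatant of macrophages that carry TNFα and CD68. Each group held 2 libraries, which the study's design text calls biological replicates. No label ties them to separate cultures or days, so p-values measure the spread between these libraries, which may in part be technical, and a batch that falls in with the medium cannot be told apart from it. Dose, exposure time and the composition of the supernatant do not appear in the labels.

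Library totals ran from 13815695 to 18005840 counts, of which the members took 0.447% to 0.477%. The control pair stood further apart than the other pair: chi-square statistics per degree of freedom were 5.22 and 1.56 (11870 genes averaging 50 counts or more). Of 10 endothelial markers, 9 were tested, with sums of 6611 to 6682 CPM (counts scaled to a common library size) over all 10; the tight junction gene Cldn5 held 1 count in all and Vwf between 33 and 61 per library. The macrophage list summed to 231 to 260 CPM, nearly all of it Cd68, with Adgre1, Tyrobp and C1qa at 0 in every library and Csf1r and Ptprc at no more than 1 count. Of these markers Kdr and Emcn of the endothelial list fell and Pdgfra of the fibroblast list rose (edgeR adjusted p = 0.0123, 0.0298 and 0.0171), and their part in the results was not tested. DESeq2 called none of these 3, nor did edgeR without either conditioned medium library, and Pdgfra was also lost without control replicate 1. Because these are bulk libraries, fewer cells carrying a transcript and less of it per cell cannot be told apart.

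Nuclear respiratory chain genes were close to the same level in both media. Of 82 members tested, 9 rose in conditioned medium and 0 fell, and the widest difference among them, in either direction, was 1.23-fold. The genes that rose included Ndufv3 and Ndufa8 of complex I, Uqcrfs1 of complex III, Cox7a2, Cox6a1 and Cox8a of complex IV, and Atp5d and Atp5g3 of complex V. Over all 13897 genes tested, 8.53% were called higher and 8.23% lower (edgeR's quasi-likelihood test, two-sided, adjusted p under 0.05), so 9 of 82 stands near the background for rises and 0 of 82 below that for falls. The median log2 fold change was 0.03 over the members and 0.00037 over all genes tested. At an unadjusted p under 0.05, 14 of 82 members were counted, 1 of them lower, beside 4105 of all 13897 genes, 2044 of them lower.

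The count filter removed 11 members, 4 of them pseudogenes, with at most 29 counts over the 4 libraries; those that passed included 1 pseudogene, Ndufs5-ps. For 52 of the 82 the 95% interval of the fold change lay within 1.25-fold in both directions, against 46.1% of all genes tested, and for 81 it lay within 1.5-fold, the exception being Cox4i2. By CPM, both libraries of one medium were above both of the other for 18 members that were higher and 10 that were lower in conditioned medium, where the shares over all genes were 28.5% and 28.8%.

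**Figure D1:**
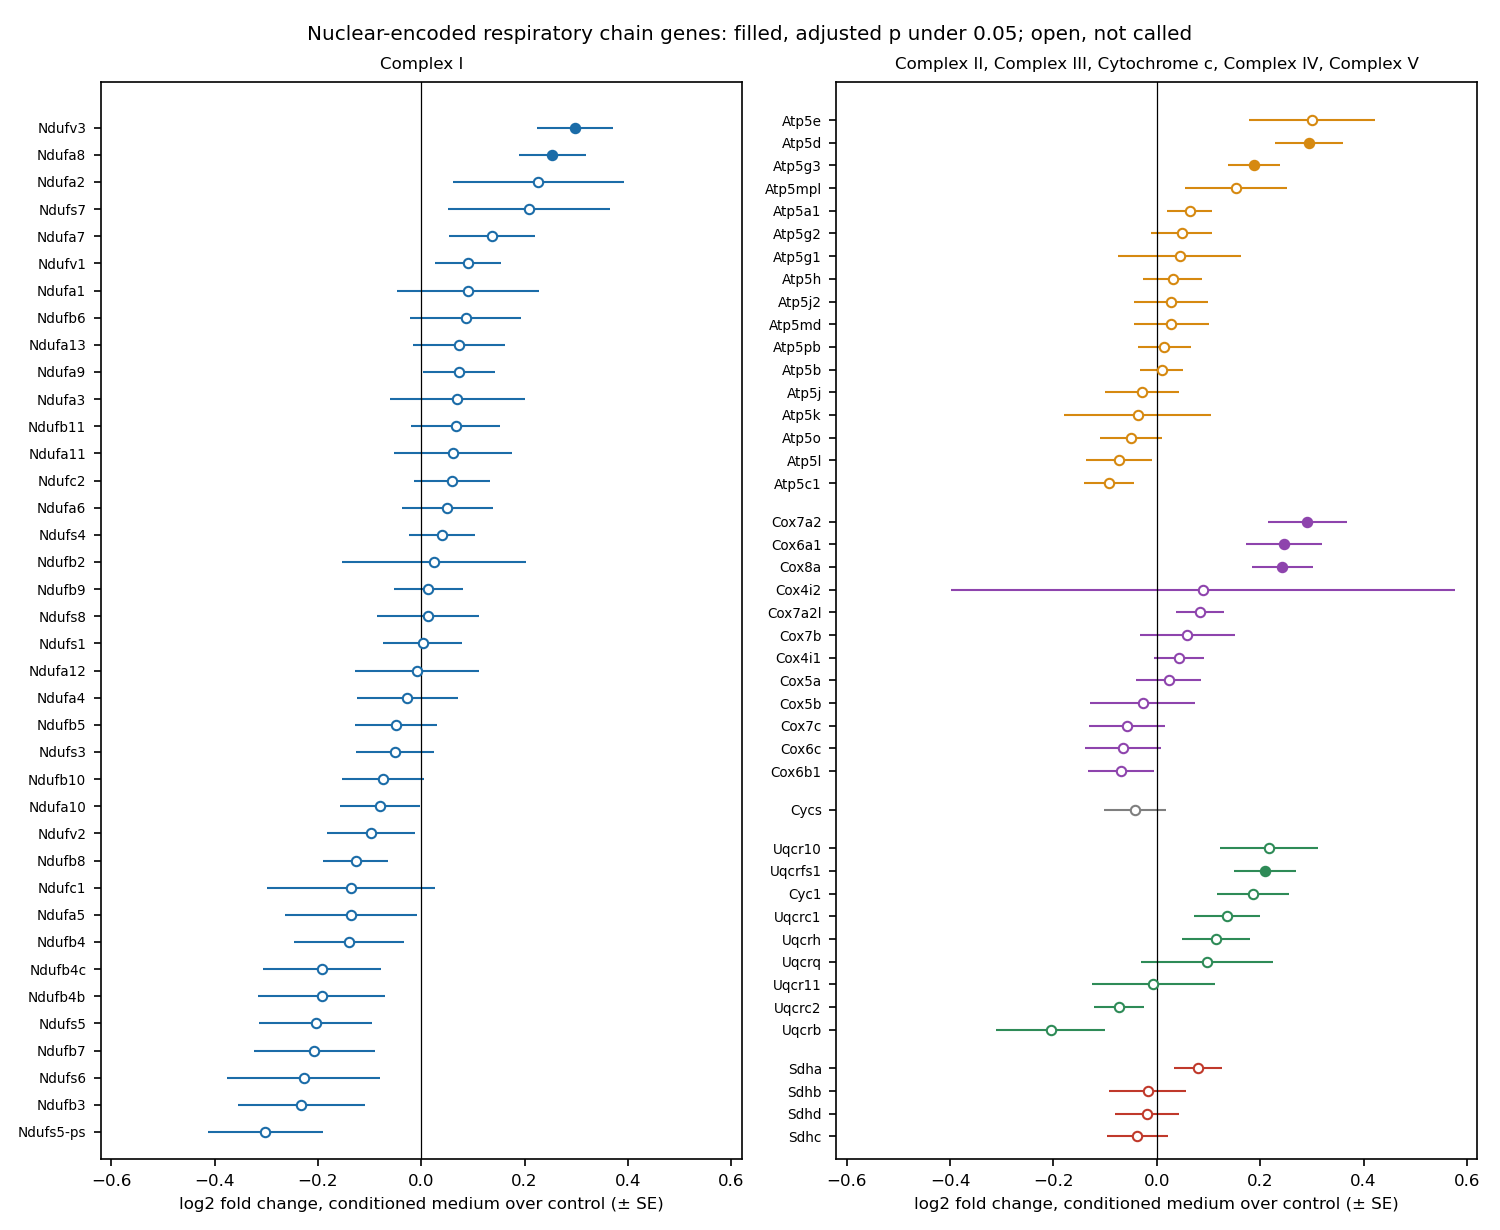
Log2 fold change (conditioned medium over control) of 81 of the tested members with its SE as a bar, complex I at left and the other complexes at right; filled points passed an adjusted p of 0.05 and open points did not. The 8 filled points lie between 0.19 and 0.30 to the right of 0, and no filled point lies to the left.

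The calls depended on single libraries. Without control replicate 1, 16 members rose and 0 fell, against 8.72% and 8.37% of all genes. Without control replicate 2, 7 rose and 9 fell, against 10.5% and 11.4% of all genes. The 9 genes called lower without control replicate 2 were Atp5l, Cox6c, Cycs, Ndufa5, Ndufc1, Ndufs5, Ndufs6, Ndufv2 and Uqcrb. Without conditioned medium replicate 1 the count was 2 higher and 0 lower, against 3.27% and 2.44% of all genes. Without conditioned medium replicate 2 it was 0 and 0, against 2.29% and 1.74%. DESeq2 called 1 member, Atp5d, against 7.48% of all genes in either direction, and limma-voom called the same 9 as edgeR.

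The members moved between replicates by as much as between media. Control replicate 1 was above control replicate 2 for 70 of 82 members, with a median log2 ratio of 0.14, whereas over all tested genes it was above for 49.2%, with a median of -0.0021. Conditioned medium replicate 2 was above replicate 1 for 58 of 82, with a median log2 ratio of replicate 1 over replicate 2 of -0.04. Measured as the median deviation from each gene's mean over the libraries, the members stood at 0.07 and -0.08 in the control libraries and at -0.02 and 0.03 in the conditioned medium libraries. Both conditioned medium values lay between the controls, so the groups overlapped.

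**Figure D2:**
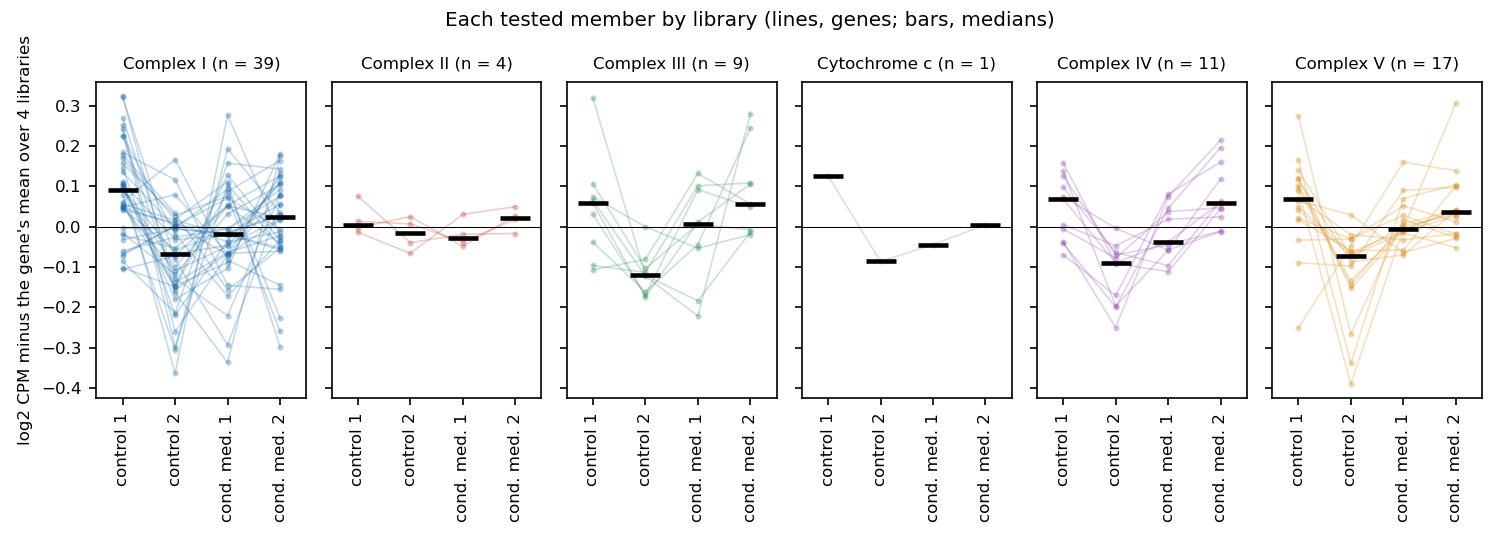
Log2 CPM of each tested member minus its mean over the 4 libraries, by complex, with lines for genes and black bars for the median of a complex; Cox4i2, with at most 15 counts in a library, is left out. In every complex the bar of control replicate 2 lies below that of control replicate 1, and in complexes I, III, IV and V both conditioned medium bars lie between them.

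Among the members, the difference between the control replicates was larger in shorter transcripts. The members are short, with a median of 763 bases over the 79 tested members that have a curated length in GENCODE M21, against 2886 bases over all tested genes with one. In 24 members under 600 bases the median log2 ratio of control replicate 1 over replicate 2 was 0.25, in 26 of 600 to 1000 bases it was 0.13, and in 29 of 1000 bases and over it was 0.05. All tested genes in the same length classes stood at 0.19, 0.06 and -0.0041, below the members in each class. In the conditioned medium pair the members' medians were -0.12, -0.05 and -0.03 in that order.

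Examples at the short end were Atp5k, a small subunit at the membrane part of the ATP synthase, with 15.5 and 10.6 CPM in control against 12.9 and 12.5 CPM, and Atp5mpl, with 56.9 and 40.1 against 53.3 and 54.6 CPM. In both, the conditioned medium libraries lay inside the span of the controls. Ndufc1, the shortest member at 315 bases, had 14.5 and 10.3 CPM in control and 9.17 and 13.1 CPM in conditioned medium, spreads of 0.49 and 0.51 on the log2 scale within the pairs. Across the 79 members, Spearman's rho of length with the control ratio was -0.52, with the conditioned medium ratio 0.29 and with the fold change between media -0.000767. Over all 12047 tested genes with a length, rho with the control ratio was -0.08. Within the members' length classes, from short to long, it was -0.41, -0.11 and 0.16. The points share their 4 libraries and their base composition was not accounted for. With a smooth trend on length removed from each library, an analysis added after the data were seen, 10 of 79 members rose and 0 fell, with a median of 0.02.

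**Figure D3:**
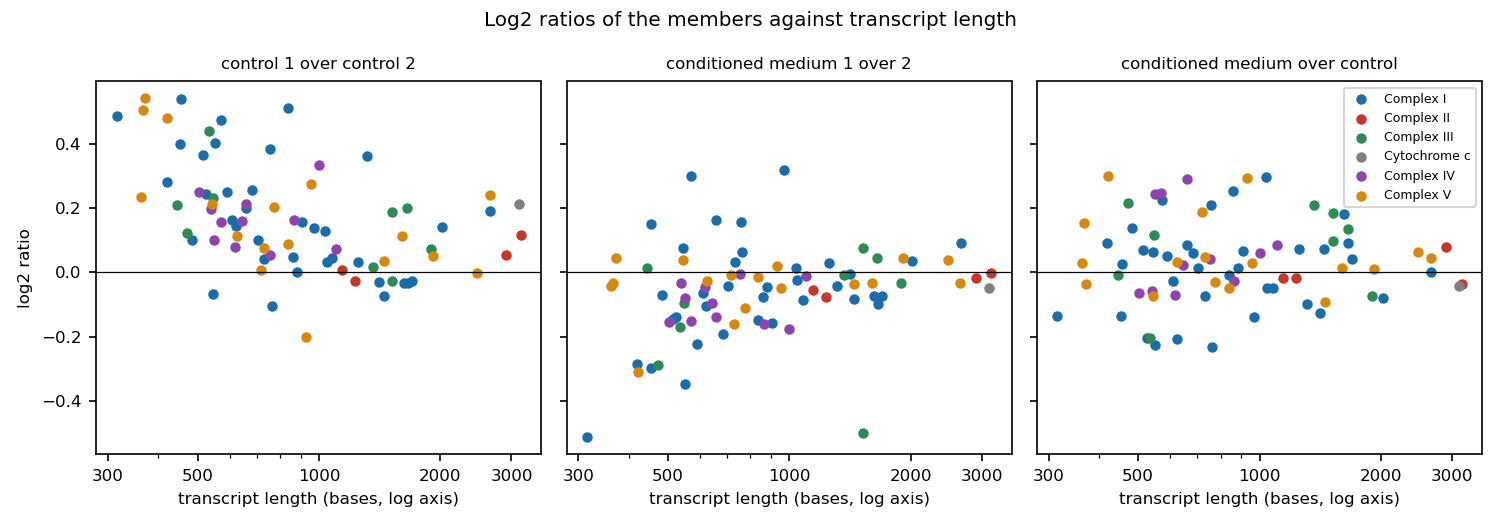
Log2 ratio of each tested member (points coloured by complex, Cox4i2 left out) against its transcript length in bases on a log axis: control replicate 1 over 2, conditioned medium replicate 1 over 2, and conditioned medium over control. The control ratios of the shortest transcripts reach 0.54, while the comparison between media shows no slope with length.

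**Figure D4:**
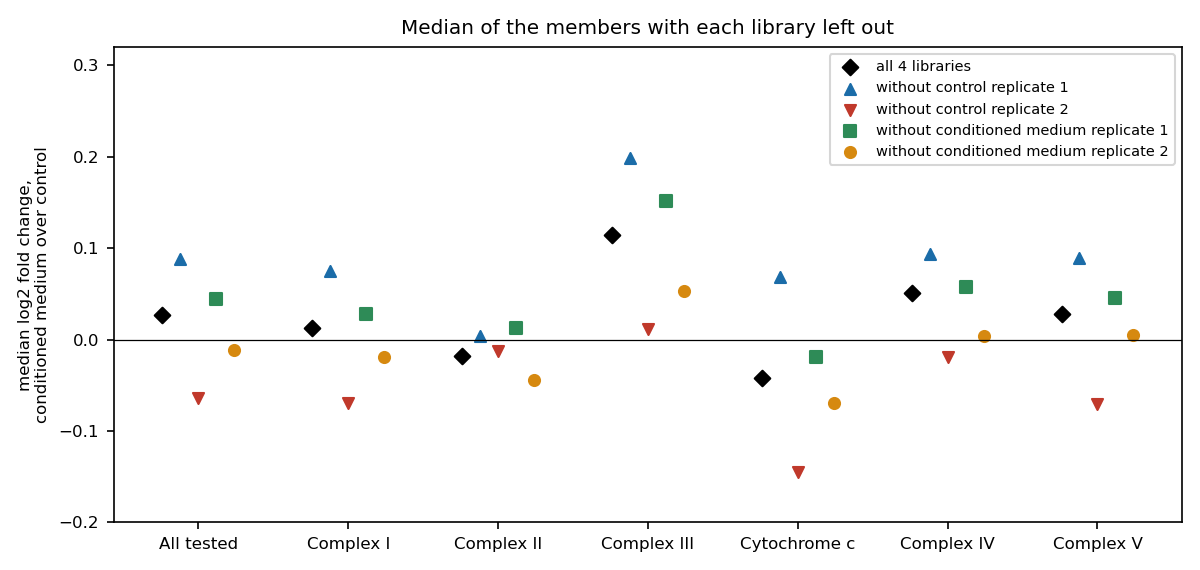
Median log2 fold change of the tested members, over all and by complex, with all 4 libraries and with each library left out. Without control replicate 2 the median over all members is -0.06, and without control replicate 1 it is 0.09.

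Complex I, NADH dehydrogenase, is the largest of the complexes. Of its 39 tested members 3 rose (7.69%) and 0 fell, against 8.53% and 8.23% of all genes. The median log2 fold change was 0.01, which was 0.07 without control replicate 1 and -0.07 without control replicate 2. Ndufa8, an accessory subunit, had 41.6 and 40.3 CPM in control and 47.4 and 50.03 CPM in conditioned medium (log2 fold change 0.25 ± 0.07 (SE); edgeR adjusted p = 0.0100). Ndufv3, an accessory subunit of the NADH-oxidising module, had 33.6 and 30.7 against 39.8 and 39.4 CPM (0.30 ± 0.07; edgeR adjusted p = 0.00711). Both showed higher values in each conditioned medium library than in either control. DESeq2 called neither, and each lost its call without either conditioned medium library.

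Core subunits of complex I carry the flavin and the iron-sulfur clusters. Ndufs1, which holds several of these clusters, was not called and stood at 41.5 and 36.4 CPM in control and at 40.4 and 37.9 CPM in conditioned medium, with a 95% interval of -0.16 to 0.16 for the log2 fold change. Ndufv1, which binds NADH, was not called either, at 46.4 ± 0.774 and 49.3 ± 2.36 CPM (mean ± SD, n = 2; edgeR adjusted p = 0.378). The 7 core members had a median of 0.01 and the 32 others of 0.0030. Ndufa4 had 19.4 ± 1.54 and 18.98 ± 0.606 CPM (edgeR adjusted p = 0.891).

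The lowest log2 fold change in complex I was that of Ndufs5-ps, a transcribed pseudogene. It had 15.8 and 15.1 CPM in control and 12.6 and 12.5 CPM in conditioned medium (log2 fold change -0.30 ± 0.11; edgeR adjusted p = 0.0674), and its parent Ndufs5 had 19.8 and 16.7 against 15.02 and 16.5 CPM. In neither did the groups overlap, and neither was called. The accessory subunits Ndufb3, Ndufs6 and Ndufb7 had fitted log2 fold changes of -0.23, -0.23 and -0.21 and were not called (edgeR adjusted p = 0.220, 0.329 and 0.249). Ndufb4, Ndufb4b and Ndufb4c, which share sequence, moved in parallel: their counts in the order control 1, control 2, conditioned medium 1 and 2 were 327, 294, 298 and 311 for Ndufb4, 275, 245, 248 and 243 for Ndufb4b, and 283, 256, 251 and 259 for Ndufb4c. All had fitted log2 fold changes between -0.19 and -0.14 and none was called. The treatment of reads that fit more than 1 gene is unknown, so these rows may hold the same reads and are uncertain.

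Complex II, succinate dehydrogenase, also works in the citric acid cycle and is encoded wholly in the nucleus. None of its 4 genes was called by edgeR, DESeq2 or limma-voom, and 0 had an unadjusted p under 0.05. Sdha, the flavoprotein, had the smallest p of the 4, with 140 and 135 CPM in control and 145 and 146 CPM in conditioned medium (log2 fold change 0.08 ± 0.05; edgeR adjusted p = 0.272). Sdhb, the iron-sulfur subunit, stood at 32.3 ± 0.0996 and 31.9 ± 0.876 CPM. The membrane anchors Sdhc and Sdhd stood at 65.7 ± 3.71 and 64.0 ± 0.0639 CPM and at 52.8 ± 0.725 and 52.0 ± 1.94 CPM. For all 4 the 95% interval lay within 1.25-fold.

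Complex III passes electrons from ubiquinol to cytochrome c. Of 9 tested members 1 rose (11.1%, against 8.53% of all genes) and 0 fell. The median was 0.11 and ran from 0.01 without control replicate 2 to 0.20 without control replicate 1. Uqcrfs1, the Rieske iron-sulfur protein, had 49.5 and 48.9 CPM in control and 56.8 and 57.02 CPM in conditioned medium (log2 fold change 0.21 ± 0.06; edgeR adjusted p = 0.0189). Its pairs agreed closely and did not overlap. It lies on chromosome 13, 30540312 to 30545316, in mm10. DESeq2 did not call it (adjusted p = 0.236), nor did edgeR without either conditioned medium library.

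Cyc1, which carries the heme of cytochrome c1, had 35.9 and 36.5 CPM in control against 42.3 and 40.2 CPM, also without overlap, and missed the threshold (log2 fold change 0.19 ± 0.07; edgeR adjusted p = 0.0723). Uqcrc1, a core protein, stood at 66.8 and 58.1 against 69.7 and 67.7 CPM (edgeR adjusted p = 0.163) and was called without control replicate 1 (adjusted p = 0.00518). Its partner Uqcrc2 stood at 147 ± 5.33 and 139 ± 2.31 CPM (edgeR adjusted p = 0.333). Uqcrb, a small ubiquinone-binding subunit, had 39.4 CPM in control replicate 1 and 29.0, 27.8 and 31.3 CPM in the other libraries. Cycs, the mobile carrier between complexes III and IV, showed the same kind of pattern, with 118 CPM in control replicate 1 and 102, 105 and 109 CPM in the others (edgeR adjusted p = 0.687; called lower without control replicate 2, adjusted p = 0.0385).

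Complex IV, cytochrome c oxidase, held 3 of the 9 rises. Of 12 tested members 3 rose and 0 fell, with a median of 0.05, or 0.04 with Ndufa4 counted in. Without control replicate 2 the median was -0.02, and without control replicate 1 it was 0.09. Cox7a2 had 40.5 and 34.995 CPM in control and 43.8 and 48.3 CPM in conditioned medium (log2 fold change 0.29 ± 0.08; edgeR adjusted p = 0.0116). Cox8a had 61.5 and 57.3 against 68.2 and 72.1 CPM (0.24 ± 0.06; edgeR adjusted p = 0.00701). Cox6a1 had 42.6 and 38.1 against 45.2 and 50.2 CPM (0.25 ± 0.07; edgeR adjusted p = 0.0240). These are small nuclear subunits around the catalytic core, and in each the conditioned medium libraries were above both controls, though for Cox7a2 and Cox6a1 the nearest libraries of the 2 groups differed by less than those within a pair.

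The calls of Cox7a2 and Cox6a1 were lost without control replicate 2 (edgeR adjusted p = 0.0649 and 0.0994), at log2 fold changes of 0.19 and 0.17. All 3 lost their calls in DESeq2 and without conditioned medium replicate 2, and Cox6a1 also without conditioned medium replicate 1 and with no count filter (edgeR adjusted p = 0.0517). The core-binding subunit Cox4i1 stood at 119 ± 3.08 and 122 ± 0.341 CPM (edgeR adjusted p = 0.612). Cox7a2l, which takes part in joining complexes III and IV into supercomplexes, had means of 161 ± 5.66 and 170 ± 0.841 CPM (edgeR adjusted p = 0.241).

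The promoters of nuclear respiratory genes are known for sites of NRF1, of the ETS factor GABP and of YY1. RefSeq promoters of GRCm38.p6 (250 bases before to 50 after a start) were found for 66 of 82 tested members, 71 windows in all, and searched on both strands. The NRF1 letters GCGCATG, whose copies on the 2 strands overlap where the full palindromic site is present, were in 19.7% of the members' windows, 6.65% of those of all tested genes and 3.91% of all windows. An alternative NRF1 core, TGCGCA, was in 26.8%, 13.3% and 7.76%. The ETS motif CCGGAAG was in 23.9%, 17.2% and 8.86%, and the YY1 motif AAGATGG in 15.5%, 7.03% and 6.34%. For the HIF core ACGTG the shares were 23.9%, 25.3% and 19.6%, and for the SP1 box GGGCGG they were 39.4%, 61.7% and 35.7%. Of the 9 windows of 8 called members, GCGCATG was in 2, TGCGCA in 2, CCGGAAG in 2, AAGATGG in 0, ACGTG in 3 and GGGCGG in 4. A match is a description of the letters, and no match says only that they are not in the window.

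The 250 bases before the start are shown for the 3 complex IV genes called higher and, for comparison, for Ndufa11 of complex I. Ndufa11 holds the same pair of overlapping NRF1 motifs as Cox6a1 and was not called (12.5 and 13.1 CPM in control, 13.8 and 13.1 CPM in conditioned medium). Capitals mark GCGCATG and CCGGAAG on either strand; AAGATGG would be marked too and is in none of the 4. The windows lie at chr5:115348959-115349208, minus strand (Cox6a1), chr9:79759854-79760103, minus strand (Cox7a2), chr19:7217617-7217866, minus strand (Cox8a) and chr17:56717512-56717761, plus strand (Ndufa11), and each reads 5′ to 3′ toward the gene.
Cox6a1 promoter: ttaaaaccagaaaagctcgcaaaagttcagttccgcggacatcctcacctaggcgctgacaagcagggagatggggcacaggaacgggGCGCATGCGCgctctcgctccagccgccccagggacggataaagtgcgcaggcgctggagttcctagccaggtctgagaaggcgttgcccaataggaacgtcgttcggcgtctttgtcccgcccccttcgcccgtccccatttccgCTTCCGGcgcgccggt
Cox7a2 promoter: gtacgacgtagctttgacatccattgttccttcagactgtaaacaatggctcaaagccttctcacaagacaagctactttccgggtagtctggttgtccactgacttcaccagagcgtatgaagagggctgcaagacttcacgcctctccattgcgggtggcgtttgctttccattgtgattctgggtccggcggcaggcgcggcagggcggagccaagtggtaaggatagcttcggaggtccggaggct
Cox8a promoter: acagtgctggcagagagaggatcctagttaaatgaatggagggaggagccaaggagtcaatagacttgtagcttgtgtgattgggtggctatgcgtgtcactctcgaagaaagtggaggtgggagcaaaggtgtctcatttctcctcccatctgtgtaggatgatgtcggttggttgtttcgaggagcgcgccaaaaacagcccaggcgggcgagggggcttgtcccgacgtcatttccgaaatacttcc
Ndufa11 promoter: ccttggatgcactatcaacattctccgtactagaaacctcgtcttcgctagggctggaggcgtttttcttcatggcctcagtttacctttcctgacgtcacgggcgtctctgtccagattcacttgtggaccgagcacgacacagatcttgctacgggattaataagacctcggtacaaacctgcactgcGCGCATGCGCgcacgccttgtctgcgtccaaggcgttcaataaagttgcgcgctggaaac
In the Cox6a1 window the NRF1 letters begin 162 and 159 bases before the start and the ETS letters 16 bases before it. In the Ndufa11 window the NRF1 letters begin 60 and 57 bases before it. The 250 bases shown for Cox7a2 and Cox8a hold no marked letters. The 50 bases after the start, which the shares above include, are not shown.

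Several subunits of complex IV exist as isoform pairs, and these cells carried the widely expressed forms. The heart and skeletal muscle isoforms were at the limit of detection: Cox6a2 held 7, 1, 7 and 3 counts (control 1 and 2, conditioned medium 1 and 2), Cox7a1 held 1, 6, 4 and 2, and Cox8b held 1, 0, 0 and 0. The testis isoforms Cox6b2 and Cox8c held 0 counts in every library, which allows up to 0.167 to 0.217 CPM (3 counts of the library total, counting error only), and Cox7b2 held 1 count in all. None of these 6 passed the count filter.

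Cox4i2 and Ndufa4l2, paralogs of Cox4i1 and Ndufa4 known to be induced in low oxygen, were also scarce. Cox4i2 held 10 and 10 counts in control and 15 and 8 in conditioned medium, with a 95% interval of -0.93 to 1.11 for its log2 fold change, too wide to show a change of 1.5-fold in either direction. Ndufa4l2 held 3 and 4 counts in control and 10 and 7 in conditioned medium. These counts did not overlap, but it was below the filter, and with no filter its log2 fold change of 1.14 was not called (edgeR adjusted p = 0.389).

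Complex V, the ATP synthase, held the most abundant member, Atp5b, the catalytic beta subunit. Of 17 tested members 2 rose (11.8%, against 8.53% of all genes) and 0 fell. The median was 0.03, which was 0.09 without control replicate 1 and -0.07 without control replicate 2. Atp5d, the delta subunit of the rotating stalk, had 49.7 and 57.3 CPM in control and 66.1 and 65.2 CPM in conditioned medium (log2 fold change 0.30 ± 0.07; edgeR adjusted p = 0.00333). Its groups did not overlap, and it was the only tested member with control replicate 2 above replicate 1 by more than 0.2 on the log2 scale. It lies on chromosome 10, 80138698 to 80145828, in mm10. It lost its call only without conditioned medium replicate 1 or 2 (edgeR adjusted p = 0.0757 and 0.0904), its 16 alternatives reaching down to 6.46e-07.

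The ring that turns in the membrane is made of a c subunit whose mature form is encoded by 3 genes. Atp5g3 had 91.5 and 90.9 CPM in control and 103.6 and 104.2 CPM in conditioned medium, with very little spread within either pair (log2 fold change 0.19 ± 0.05; edgeR adjusted p = 0.0123). Atp5g2 had 86.1 and 81.7 against 81.7 and 91.3 CPM (edgeR adjusted p = 0.641) and Atp5g1 13.8 and 11.7 against 13.0 and 13.3 CPM (edgeR adjusted p = 0.850). Atp5g3 lost its call in DESeq2 (adjusted p = 0.152) and without either conditioned medium library. Whether the 3 genes differ from each other in their response was not tested.

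Atp5b itself stood at 825 and 797 CPM in control and at 829 and 803 CPM in conditioned medium, a log2 fold change of 0.01 with a 95% interval of -0.08 to 0.10. Its partner in the catalytic head, Atp5a1, stood at 236 ± 0.291 and 247 ± 4.74 CPM (edgeR adjusted p = 0.352). Atp5e, the epsilon subunit, had the largest fitted rise of any tested member at 0.30 ± 0.12, from 25.2 and 18.1 to 23.6 and 29.3 CPM, but its groups overlapped and it was not called (edgeR adjusted p = 0.100). It was called with a replicate block, with the length trend removed and without control replicate 1, and its log2 fold change ran from 0.08 to 0.56 over the alternatives. Atpif1, which inhibits the synthase and is no member, stood at 29.0 ± 4.07 and 26.7 ± 0.245 CPM (edgeR adjusted p = 0.413).

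Levels per transcript length, in CPM per kilobase, differed between members far more than between media. The median was 26.7 in control and 27.5 in conditioned medium for complex I (36 members with a length), 35.6 and 35.1 for complex II, 37.8 and 41.7 for complex III, 75.8 and 78.2 for complex IV, and 83.4 and 78.2 for complex V. Over the 4 libraries Atp5b was highest at 425 CPM per kilobase, followed by Cox4i1 at 160, Cox7a2l at 150 and Uqcrh, a small acidic subunit of complex III, at 147. In complex I, levels ran from 10.6 for Ndufs7, a core iron-sulfur subunit, to 111 for Ndufc2, a membrane-arm accessory subunit. The length used for Atp5g1 is a median of curated forms from 596 to 4715 bases, so its level per length is uncertain.

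**Figure D5:**
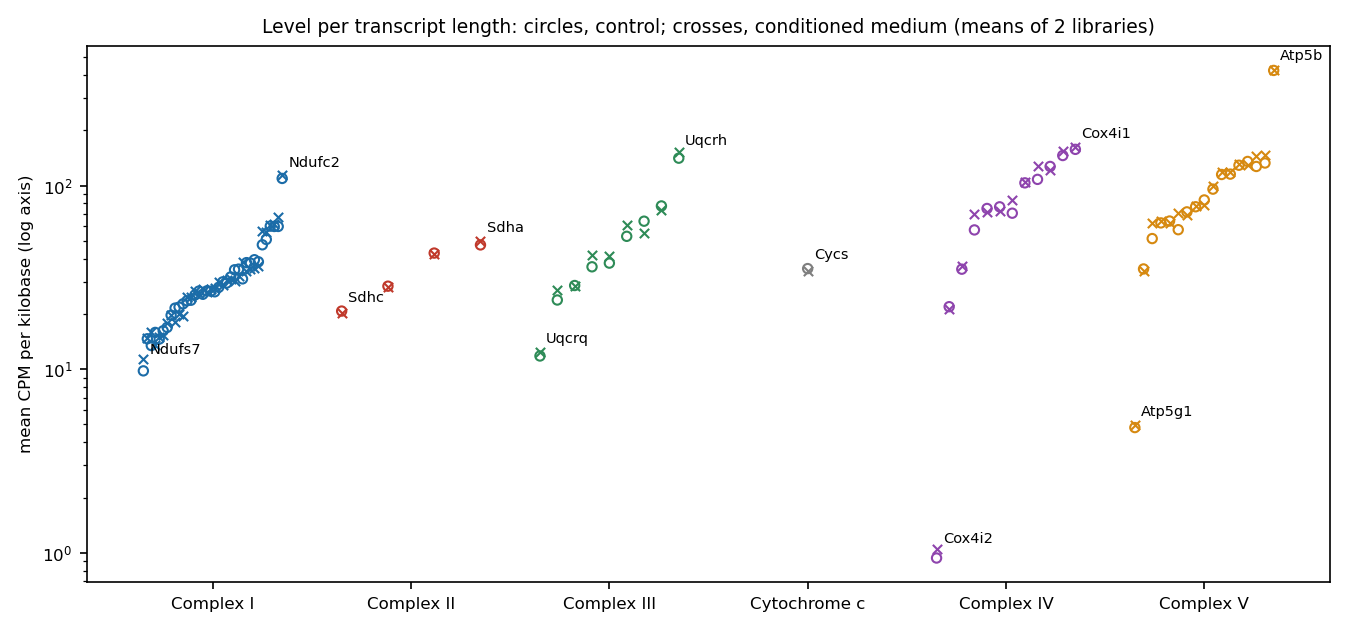
Mean CPM per kilobase of transcript on a log axis for the tested members with a length, sorted within each complex; circles are control and crosses are conditioned medium, each the mean of 2 libraries, with the lowest and highest member of each complex named. Circles and crosses of a gene nearly coincide, while genes of complex I spread from 10.6 to 111 CPM per kilobase and those of complex III from 12.1 to 147.

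The rest of the respiratory machinery gave few calls beside the 8.53% of all genes called higher and the 8.23% called lower. Of 54 assembly factors of the 5 complexes, 0 rose and 1 fell, with a median of -0.03; the gene that fell was Lrpprc, which stabilises mitochondrial mRNAs, from 46.3 ± 2.17 to 39.0 ± 2.84 CPM (edgeR adjusted p = 0.0227). DESeq2 and each of the fits without control replicate 1, conditioned medium replicate 1 or conditioned medium replicate 2 did not call Lrpprc. Over the alternatives with all 4 libraries, 0 assembly factors rose in any. The number that fell ran from 0 in DESeq2 to 4 with the length trend removed. The median of the assembly factors was -0.0031 without control replicate 1 and -0.07 without control replicate 2. Of 18 regulators of mitochondrial biogenesis, edgeR, DESeq2 and limma-voom each called 0, with 2 at an unadjusted p under 0.05. With a replicate block, with a robust spread and with the length trend removed 1 was called lower, and without either control library 1 was called higher and 1 lower. The 2 were Ppargc1a, the coactivator PGC-1α, at 27.4 ± 0.827 and 23.0 ± 2.58 CPM (edgeR adjusted p = 0.0551, and 0.0231 to 0.538 over the alternatives), and Esrra at 17.4 ± 0.595 and 20.2 ± 0.342 CPM (edgeR adjusted p = 0.139), both named after their values were seen. Of the factors whose motifs were searched, Nrf1, Gabpa and Yy1 were not called (edgeR adjusted p = 0.649, 0.203 and 0.30), and Hif1a, named after its value was seen, rose from 597 ± 8.43 to 701 ± 7.62 CPM (edgeR adjusted p = 4.59e-04), a call lost without either conditioned medium library. Epas1, another HIF subunit, was not called (edgeR adjusted p = 0.142).

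The mitochondrially encoded partners of these subunits gave another count. Of 13 such genes 5 fell and 0 rose, against 8.23% of all genes called lower, with a median of -0.14 that ran from -0.25 without control replicate 2 to -0.02 without control replicate 1. Without conditioned medium replicate 1 the median was -0.12, and without conditioned medium replicate 2 it was -0.15. ND6 and ND5, complex I subunits, went from 1805 ± 111 to 1249.5 ± 8.26 CPM and from 4476 ± 143 to 3326 ± 3.23 CPM (edgeR adjusted p = 9.62e-08 and 7.27e-07). Both kept their calls under every alternative that included them. The other genes that fell, ND4, ND4L and CYTB, named after their values were seen, lost their calls without either conditioned medium library. ND5 and ND6 lie on opposite strands beside each other, and the kit does not mark strand. Their reads therefore cannot be told apart where they overlap. The 13 genes summed to 45127 and 41781 CPM in control and to 40344 and 40765 CPM in conditioned medium, and the nuclear members tested to 4774 and 4432 against 4669 and 4766 CPM. Whether the 2 genomes' transcripts differ in their response was not tested.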

How the data were processed

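Libraries were made from total RNA with TruSeq RNA Library Prep Kit V2, per the labels' protocols, a kit that does not mark strand. The authors deposited raw counts per gene for 4 libraries; STAR 2.5.2b, featureCounts, Subread 1.4.6-p1 and mm10 are named in the submitters' processing notes, and no source used here gives their settings. Entrez identifiers were matched to RefSeq GRCm38.p6, the build of mm10 (25275 of 27179 rows; the 1904 others, with 6.31% of counts, stayed in the fit). A further 14 symbols meet the rule, 13 of them pseudogenes, and have no row in the table used here.

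Counts were fitted with edgeR 4.0.16 in R 4.3.3: filterByExpr (minimum count 10, total 15), TMM factors of 0.987 to 1.01, the quasi-likelihood test of conditioned medium against control with no replicate block, two-sided, Benjamini-Hochberg adjustment over 13897 genes and a threshold of 0.05 on the adjusted p. Residual degrees of freedom were 2. The SE was taken as the size of the log2 fold change divided by the root of the F statistic. CPM use TMM-scaled library sizes, and lengths are medians of GENCODE M21 transcripts linked to curated RefSeq records. The procedure was tested on simulated data.

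Members and lists were chosen with earlier results of these data known, and the motif letters after the data were seen. Named were the called members, the member with the smallest p in a complex without one, the 2 called genes with the largest change in each list, and Ndufs1, Ndufv1, Ndufa4, Ndufa4l2, the Sdh genes, Uqcrc1, Uqcrfs1, Cyc1, Cycs, Cox4i1, Cox4i2, Cox6a1, Cox6a2, Cox7a1, Cox7a2, Cox7a2l, Cox8a, Atp5b, Atpif1 and the Atp5g genes; all other genes were named after their values were seen. Alternatives were other scalings and filters, a replicate block, a robust spread, DESeq2 1.42.0, limma-voom (limma 3.58.1), each library left out (the spread then coming from the group that keeps its pair), thinned counts, no mitochondrially encoded genes, structural subunits only and, added after the data were seen, removal of a length trend. A called member is counted and not reported here by name.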

Additional observations from a re-analysis of the deposited data

How the results depend on the processing

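RLE, upper-quartile and library-total scaling, a robust spread, a filter at 1 CPM in 2 libraries, thinned counts, leaving out mitochondrially encoded genes and limma-voom each kept 9 members higher and 0 lower, as did counting structural subunits and carriers only; no count filter gave 8 and 0. DESeq2 called 918 genes in all and 1 member higher. Leaving out 1 library in turn gave 569 to 3107 genes called, 0 to 16 members higher, 0 to 9 lower and a median log2 fold change of -0.0634 to 0.0884; the cause was not tested, though in the fits without a conditioned medium library the spread comes from the control pair alone. With a replicate block, 2671 genes and 10 members were called higher or lower in all, the members all higher; the within-pair differences of equal numbers correlated at -0.04 over genes, and the labels do not say that a number marks a shared batch, so the numbers were not taken to pair the libraries. With 2 libraries a group, the median SE of a member was 0.08 on the log2 scale, which limits what could be called.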

Other observations

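Neighbouring groups of mitochondrial genes were counted beside the respiratory chain. Of 20 genes of the citric acid cycle and pyruvate entry, 1 rose and 2 fell, against 8.53% and 8.23% of all genes. Their median log2 fold change was -0.01. Mpc1, a subunit of the mitochondrial pyruvate carrier, fell from 31.2 ± 0.181 to 25.5 ± 1.22 CPM (mean ± SD, n = 2; edgeR adjusted p = 0.0150), and Idh3a, a catalytic subunit of isocitrate dehydrogenase, from 68.3 ± 2.05 to 60.7 ± 1.503 CPM (edgeR adjusted p = 0.0455). Cs, citrate synthase, named after its value was seen, rose from 327 ± 2.02 to 359 ± 8.29 CPM (edgeR adjusted p = 0.0353). DESeq2 called none of the 3, nor did edgeR when a conditioned medium library was left out; Idh3a was lost in 5 other alternatives.

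Of 10 genes of the HIF pathway and its known actions on mitochondria, 5 rose and 0 fell, against 8.53% of all genes called higher. The 10 include Hif1a, which is among those that rose, and Epas1, which is not. The median was 0.18, or 0.20 without conditioned medium replicate 1 and 0.15 without conditioned medium replicate 2. Bnip3, a mitophagy receptor, had 34.4 and 26.1 CPM in control and 48.2 and 42.0 CPM in conditioned medium (log2 fold change 0.57 ± 0.10; edgeR adjusted p = 3.24e-04). Mxi1, a MYC antagonist, had 38.2 and 31.4 against 46.2 and 45.1 CPM (edgeR adjusted p = 0.00176). It lost its call without either conditioned medium library, as did Hif1a. Bnip3l lost its call without conditioned medium replicate 1 and Pdk1 without conditioned medium replicate 2, both named after their values were seen. Of the genes that rose, only Bnip3 kept its call under every alternative. Of 11 supercomplex and cristae genes, edgeR, DESeq2 and limma-voom each called 0, with 0 at an unadjusted p under 0.05.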
